A study of Mus musculus with 5 samples.

Results

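The single-cell RNA sequencing (scRNA-Seq) data were examined for 7 genes that mark resting, recirculating T cells: S1pr1, Klf2, Lef1, Tcf7, Satb1, Dapl1, and Igfbp4. The genes were taken by name, with no measured value in the rule but with earlier results of these data known, and all 7 are among the 31950 genes shared by the annotations of the 5 reactions. Their unique molecular identifiers (UMIs), each of which stands for 1 captured RNA molecule, were compared between T cells of tumor-draining lymph nodes (TDLNs) and T cells of tumors, and between the CD4, CD8, regulatory (Treg), and cytotoxic classes within each tissue. The TDLN material was 3 reactions from mice with TRAMP-C2, a mouse prostate cancer line, and the tumor material was 2 reactions from mice with MC38, a mouse colon cancer line. All mice were male WT C57BL/6J, 8 to 10 weeks old, and carried s.c. tumors grown from implanted cancer cells. From day 3 to day 9 they were dosed with isotype antibodies or with checkpoint inhibition (CPI), the pair of anti-CTLA4 and anti–PD-1 antibodies, and on day 12 with DPBS vehicle or 20 mg/kg ABT-317, a JAK1 inhibitor, before harvest on day 15. Within each reaction the treatment groups were pooled after labeling with hashtag antibodies. TDLN cells were not sorted, whereas live CD45+ and CD45– tumor cells were sorted and pooled, so that tissue, cancer line, sort, digestion, and software release differed together between the 2 sets of reactions and cannot be told apart. Tumor stage may differ as well, because the sources used here count the days of the MC38 mice in some places from implantation and in others from enrollment at a minimal tumor size. Every value for T cells of TDLNs covers all treatments, because the antibody counts of the TDLN reactions are 0 throughout. The treatment mix may also differ between the tissues and cannot be told apart from tissue, since by the hashtags most tumor T cells with 1 assigned treatment came from CPI and few from ABT-317.

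A naive T cell circulates between blood and lymphoid tissue, enters a node with the help of the chemokine receptor CCR7, and leaves it along a gradient of sphingosine 1-phosphate (S1P) through the receptor S1PR1. KLF2 is a zinc finger transcription factor that drives S1pr1 in resting T cells, and both S1pr1 and Klf2 are known to fall after antigen receptor stimulation and in tissue-resident T cells. LEF1 and TCF1, the product of Tcf7, are HMG box transcription factors that maintain naive and stem-like T cells, and SATB1 is a chromatin organizer with roles in thymocytes and Tregs. Dapl1 and Igfbp4, which encodes an insulin-like growth factor binding protein, are used as markers of naive T cells in mice, although Igfbp4 is also made by stromal cells, Klf2 and S1pr1 are also prominent in endothelium, and Klf2 and Satb1 also work outside the T lineage.

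In GRCm38 with GENCODE M21, whose gene identifiers match those in the files, S1pr1 lies on chromosome 3 from 115710433 to 115715072 on the minus strand, Klf2 on chromosome 8 from 72319033 to 72321656 on the plus strand, and Lef1 on chromosome 3 from 131110471 to 131224356 on the plus strand. Tcf7 lies on chromosome 11 from 52252371 to 52283014 on the minus strand, Satb1 on chromosome 17 from 51736187 to 51833290 on the minus strand, Dapl1 on chromosome 2 from 59484653 to 59505020 on the plus strand, and Igfbp4 on chromosome 11 from 99041244 to 99054392 on the plus strand. All 7 are protein coding. RefSeq promoters (GRCm38.p6) of 6 of the 7 members (all but S1pr1) were searched on both strands over the 250 bases before each start for CTTTGA and CTTTGT, letters bound by TCF and LEF factors, for GTAAACA, letters bound by forkhead factors such as FOXO1, and for CACCC, letters bound by KLF factors. CTTTGA stood in 13.8% of all 32851 promoters of that length, CTTTGT in 16.5%, GTAAACA in 3.17%, and CACCC in 52%. Of the 14 promoters of the members, CACCC stood in 12, which is a common match, GTAAACA in 1 (Dapl1), CTTTGA in 1 (Lef1), and CTTTGT in 3 (Lef1 and Satb1). Some promoters of Lef1 and of Satb1 overlap, so the 14 are not all separate. The Satb1 promoters with CTTTGT hold the same site. Those shown hold the less common matches, at chr2:59484403-59484652 (plus strand) for Dapl1, chr3:131156044-131156293 (plus strand, a start inside the gene) for Lef1, and chr17:51812185-51812434 (minus strand, a start inside the gene) for Satb1. Capitals mark the matches on either strand, and a match is a description of the letters only.
Dapl1: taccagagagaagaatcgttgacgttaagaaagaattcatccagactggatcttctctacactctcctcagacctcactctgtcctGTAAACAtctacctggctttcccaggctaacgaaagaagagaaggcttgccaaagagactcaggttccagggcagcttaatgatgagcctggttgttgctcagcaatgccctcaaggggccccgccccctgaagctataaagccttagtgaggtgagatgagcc
Lef1: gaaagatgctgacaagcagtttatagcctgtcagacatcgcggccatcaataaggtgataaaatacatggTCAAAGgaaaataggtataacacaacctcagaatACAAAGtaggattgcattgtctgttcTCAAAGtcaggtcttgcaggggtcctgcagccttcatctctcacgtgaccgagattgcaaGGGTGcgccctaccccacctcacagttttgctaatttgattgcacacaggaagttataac
Satb1: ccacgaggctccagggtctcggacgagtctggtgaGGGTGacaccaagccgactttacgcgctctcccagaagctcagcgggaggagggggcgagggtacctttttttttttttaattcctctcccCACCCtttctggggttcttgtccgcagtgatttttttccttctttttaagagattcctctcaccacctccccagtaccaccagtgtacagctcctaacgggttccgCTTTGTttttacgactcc

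Depth and the state of the barcodes bear on every value. Reactions held 18055617 to 127052825 gene UMIs in TDLNs and 377184807 and 435031691 in tumors, and 6518 to 62322 and 9682 and 15219 barcodes passed the study's filters. Tumor reactions 1 and 2 held 37774 and 27582 barcodes in all, of which 18737 and 13796 had 2500 genes or more and were left out. In TDLN reactions 1, 2, and 3 that limit left out 249, 280, and 532 barcodes. T cells were gated by at least 2 of 6 T cell genes (CD3 chains and T cell receptor constant genes), with no UMI of 6 B cell genes and at most 1 gene of another lineage, and no member was part of any gate. In TDLN reactions 1, 2, and 3, 97.8%, 92.6%, and 96.8% of barcodes with at least 2 T cell genes also held a UMI of a B cell gene, compared with 7.73% and 5.34% in tumor reactions 1 and 2. Without them 967, 2989, and 143 TDLN barcodes and 549 and 479 tumor barcodes were left, and the limit on genes of other lineages brought these to 910, 2830, and 132 in TDLNs and to 174 and 258 in tumors. The B cell genes thus removed most TDLN barcodes, and the limit on other lineages removed a larger part of what was left in tumors than in TDLNs. T-gated tumor barcodes were shallow, with medians of 1166.5 and 1039 UMIs against 6785 and 7079 over all tumor barcodes. Without the upper limit on genes the tumor T gate held 174 and 259 barcodes. The spread of a member over barcodes was measured as the squared deviation of its UMIs from the number expected at each barcode's depth, divided by that number and averaged, which is near 1 for random counts. It was 0.993 to 1.18 over all TDLN barcodes and 1.35 to 4.26 in tumors. TDLN reactions 1, 2, and 3 held 62575, 56511, and 7050 barcodes, beside 60000 cells put into each reaction. Whether a TDLN barcode stands for a single cell was not tested, so T cells, classes, and shares of TDLNs are those of barcodes that passed a gate and may not be those of single cells. T-gated TDLN barcodes are those without a UMI of the 6 B cell genes, and they were not free of B cell RNA. Cd74, an antigen presentation gene of B and myeloid cells that was not in the gate, stood at 1870, 1775, and 3599 UMIs per 1000000 UMIs of the sum (CPM) in T-gated TDLN barcodes and at 754 and 379 CPM in T-gated tumor barcodes. In the tumor T sums all 6 genes of the macrophage list had UMIs in both reactions (822 and 296 CPM in sum), and 6 and 4 of the 6 fibroblast genes had UMIs (238.5 and 143.2 CPM), whereas these lists came to 21.6, 25.2, and 30.8 CPM and to 0, 0.716, and 0 CPM in TDLNs. Of the 6 genes of the natural killer (NK) cell list, 3 and 4 had UMIs in the tumor T sums (259.8 and 159.2 CPM in sum) and 6, 6, and 4 in the TDLN T sums (48.2, 49.2, and 71.9 CPM). Of the 4 plasma cell genes, 3, 3, and 2 had UMIs in TDLNs (77.9, 88.0, and 359 CPM) and 1 and 0 in tumors (4.26 and 0 CPM). The part of these cell types in the results was not tested. Barcode sequences shared between any 2 reactions were close to the number expected from a common barcode list (for TDLN reactions 1 and 2, 4842 shared against 4796.2 expected).

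All 7 members were higher in T cells of TDLNs than in T cells of MC38 tumors, by 4.61-fold (Satb1) to 23.4-fold (Igfbp4) for the 6 members with UMIs in tumor T cells. The Igfbp4 ratio rested on 8 tumor UMIs and was 10.7 (39 tumor UMIs) when up to 4 genes of other lineages were allowed (wide gate, a choice made after the data were seen). With that gate S1pr1 had the highest ratio of these 6, at 23.4, so their order depended on the gate. The 6 members with tumor UMIs passed edgeR's quasi-likelihood test with Benjamini-Hochberg adjustment over the 5268 genes tested. In that test 34.8% of genes passed in either direction and 15.1% were higher in TDLNs. Dapl1 had 0 UMIs in the tumor sums. It passed the filter on low counts through the TDLN sums alone, so its call is no support. S1pr1 and Igfbp4, low in both tumor sums, also passed this filter only through the TDLN sums. Their calls are no support either, and their levels are given as values. Every TDLN sum lay above every tumor sum for each member, as it did for 31.3% of all genes tested. The median log2 difference of the 7 members, with Dapl1 among them, was 3.15, beside 0.034 over all genes. The 5 sums are the samples of these tests, and nothing in the labels says that reactions of a tissue came from separate mice, so p-values measure only the spread between reactions.

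**Figure D1:**
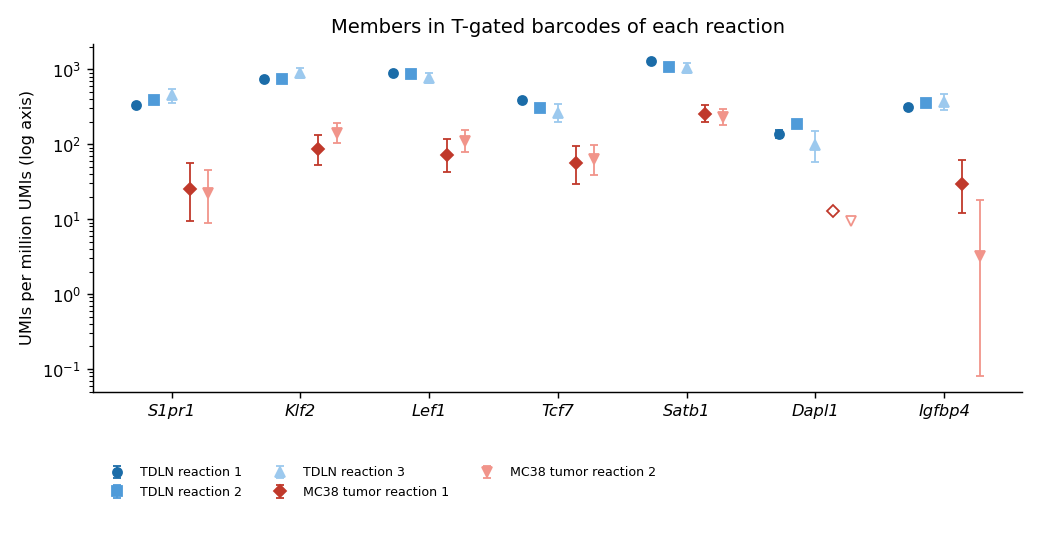
Level of each member in T-gated barcodes of the 5 reactions, in CPM on a log axis, with exact Poisson 95% intervals; open symbols stand for 0 UMIs and are drawn at the level of 3 counts. Blue TDLN points lie above red MC38 points for every gene, and Dapl1 has no UMI in tumor T cells.

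The trafficking pair came first. S1pr1, the receptor for exit from nodes, stood at 334, 391, and 447 CPM in TDLN reactions 1, 2, and 3 and at 25.6 and 22.3 CPM in tumor reactions 1 and 2. The groups did not overlap, and tumor values rested on 13 UMIs in all. The means were 390.3 ± 56.6 CPM (SD, n = 3) and 23.9 ± 2.32 CPM (SD, n = 2), a ratio of summed counts of 15.9 (exact 95% counting interval, 9.31 to 30.0) and a log2 difference of 3.99 ± 0.288 (SE, edgeR adjusted p = 4.32e-07). S1pr1 entered the test through the TDLN sums alone, so this p-value is no support. Klf2, its transcriptional activator, stood at 750, 745, and 893 CPM in TDLNs and at 85.2 and 143 CPM in tumors, again without overlap. The Klf2 means were 796 ± 84.1 CPM (SD, n = 3) and 114 ± 41.1 CPM (SD, n = 2), and the log2 difference was 2.74 ± 0.229 (SE, edgeR adjusted p = 1.54e-06).

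The HMG box factors showed differences of similar size. Lef1 stood at 895, 861, and 770 CPM in TDLNs and at 72.4 and 111 CPM in tumors, with means of 842 ± 64.6 CPM (SD, n = 3) and 91.9 ± 27.6 CPM (SD, n = 2). Its log2 difference was 3.15 ± 0.225 (SE, edgeR adjusted p = 4.05e-07), and the lowest TDLN value was well above the higher tumor value. Tcf7, which encodes TCF1, stood at 387, 304, and 262 CPM in TDLNs and at 55.4 and 63.7 CPM in tumors, with a log2 difference of 2.42 ± 0.259 (SE, edgeR adjusted p = 1.37e-05). Tumor T cells thus kept a measurable Tcf7 level (33 UMIs in all), lower in both reactions than in any TDLN reaction. For Satb1, the chromatin organizer, the sums were 1287, 1058, and 1042 CPM in TDLNs and 256 and 232 CPM in tumors, the smallest of the 7 ratios at 4.61 (exact 95% counting interval, 3.88 to 5.51), with a log2 difference of 2.20 ± 0.191 (SE, edgeR adjusted p = 2.1e-06).

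The last pair were the naive markers. Dapl1 stood at 137, 184, and 97.6 CPM in TDLNs and had 0 UMIs in 548939 UMIs of tumor T cells, which allows up to 5.465 CPM over both reactions, so it was at least 31.1-fold higher in TDLNs by summed counts (lower exact 95% counting limit of the ratio, 25.3). Against tumor reaction 1 or 2 alone, with 3 counts as the limit in that reaction, the bound was 13.3-fold or 17.8-fold, and without TDLN reaction 2 it was 24.4-fold. With the wide gate 1 Dapl1 UMI was counted in tumors, and the ratio was 208 (exact 95% counting interval, 37.2 to 8214). Only 1 Dapl1 UMI was found in any barcode of tumor reaction 1 that passed the filters, and none in reaction 2. Igfbp4 stood at 312, 350.5, and 370 CPM in TDLNs, a narrow range, and at 29.8 and 3.18 CPM in tumors, where it rested on 8 UMIs and the reactions differed. The Igfbp4 log2 difference was 4.50 ± 0.414 (SE, edgeR adjusted p = 3.37e-06). That p-value is no support, since Igfbp4 entered the test through the TDLN sums alone. Against tumor reaction 1 alone the Igfbp4 ratio of summed counts was 11.4 (exact 95% counting interval, 5.55 to 28.5), and against reaction 2 alone, where 1 UMI was counted, it was 107 (19.2 to 4236). In sums over barcodes, fewer T cells with a gene and fewer copies in each cannot be told apart. The intervals and limits cover counting error only.

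Because B cell RNA was present in TDLN barcodes, the comparison was repeated in T-gated barcodes with no Cd74 UMI (424 of 910, 1227 of 2830, and 32 of 132 in TDLNs and 107 of 174 and 175 of 258 in tumors), a choice made after the data were seen. Every member with tumor UMIs again passed the test, where 29.2% of genes passed. Dapl1 had none there and passed the filter on low counts through TDLNs alone, so its call is no support. S1pr1, Tcf7, and Igfbp4 had too few tumor UMIs to pass this filter without the TDLN sums. Their calls are no support beyond the values of each gene. S1pr1 stood at 327, 365, and 354 CPM in TDLNs against 29.3 and 20.3 CPM in tumors, and Klf2 at 739, 768, and 983 CPM against 102 and 172 CPM. Lef1 stood at 958, 911.5, and 681 CPM against 65.9 and 106.5 CPM, and Tcf7 at 404, 310.5, and 249 CPM against 36.6 and 65.9 CPM. The TDLN levels of these 4 genes were thus within 1.5 times of those in the whole gate in each reaction. B cell RNA was lowered in these TDLN barcodes but not removed. The B cell gene Ighm stood at 124, 127, and 91.7 CPM there, against 184, 175, and 272 CPM in the whole gate. Dapl1 again had 0 UMIs in tumors and was at least 22.7-fold higher in TDLNs, at 157, 224, and 118 CPM. By class, the members with UMIs in the tumor sums passed by edgeR in each case. These were Klf2, Lef1, Tcf7, and Satb1 for CD4 cells, where 6.27% of genes passed and the tumor side was a single sum, the same 4 and S1pr1 for CD8 cells, where 10.4% passed, and the same 5 and Igfbp4 for cytotoxic cells, where 27.2% passed. The other members had 0 UMIs in the tumor sums and could pass the filter on low counts through TDLNs alone. In each class this filter favored genes high in TDLNs, so the calls are no support beyond the values of each gene.

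A second question was whether the members told T-gated from B-gated barcodes within TDLNs. B-gated barcodes (6435, 3958, and 473 in the 3 reactions) had at least 3 of the 6 B cell genes and at most 1 gene of the T cell and other lists together. The ratio of the T-gate level to the B-gate level was 0.957 to 1.07 for S1pr1, 0.877 to 0.960 for Klf2, and 0.846 to 0.932 for Satb1. Klf2 and Satb1 were thus higher in B-gated barcodes in all 3 reactions, and S1pr1 was close to its B-gate level, above it in reactions 1 and 2 and below it in reaction 3. The ratio was 1.13 to 1.37 for Lef1, 1.04 to 1.39 for Tcf7, 1.11 to 2.10 for Dapl1, and 1.33 to 1.40 for Igfbp4, each above 1 in all 3 reactions. In reaction 3 the interval held 1 for Lef1 (0.936 to 1.36), Tcf7 (0.749 to 1.43), and Dapl1 (0.626 to 1.88). These ratios are small for genes of 1 lineage, in barcodes where T cell RNA was present on both sides.

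To look at B-gated barcodes with less T cell RNA, those with no UMI of 11 T cell genes were taken (376, 606, and 22 barcodes, with medians of 1376.5, 1076.5, and 979 UMIs against 1674, 1499, and 1393 in the whole B gate), again after the data were seen. Because a barcode with fewer UMIs passes this condition more easily, the levels are given as a description, and reaction 3 rests on 22 barcodes. In reactions 1 and 2, Lef1 stood at 142.5 and 67.2 CPM there, Tcf7 at 54.0 and 31.8 CPM, Dapl1 at 16.4 and 14.7 CPM, and Igfbp4 at 47.5 and 13.4 CPM. Each of these 4 was below its T-gate level in both reactions, by over 5-fold. Klf2 stood at 1023 and 1252 CPM, Satb1 at 1320 and 1128 CPM, and S1pr1 at 219 and 209 CPM in the same barcodes. The first 2 were above their T-gate levels in both reactions, and S1pr1 was below by less than 2-fold. In reaction 3, Lef1 stood at 585.5 CPM and Tcf7 at 41.8 CPM, so Lef1 was not low there. In TDLNs the 7 genes therefore fell into 4 that followed T cell genes in reactions 1 and 2 and 3 that were also high in barcodes with B cell genes and no T cell gene detected.

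**Figure D2:**
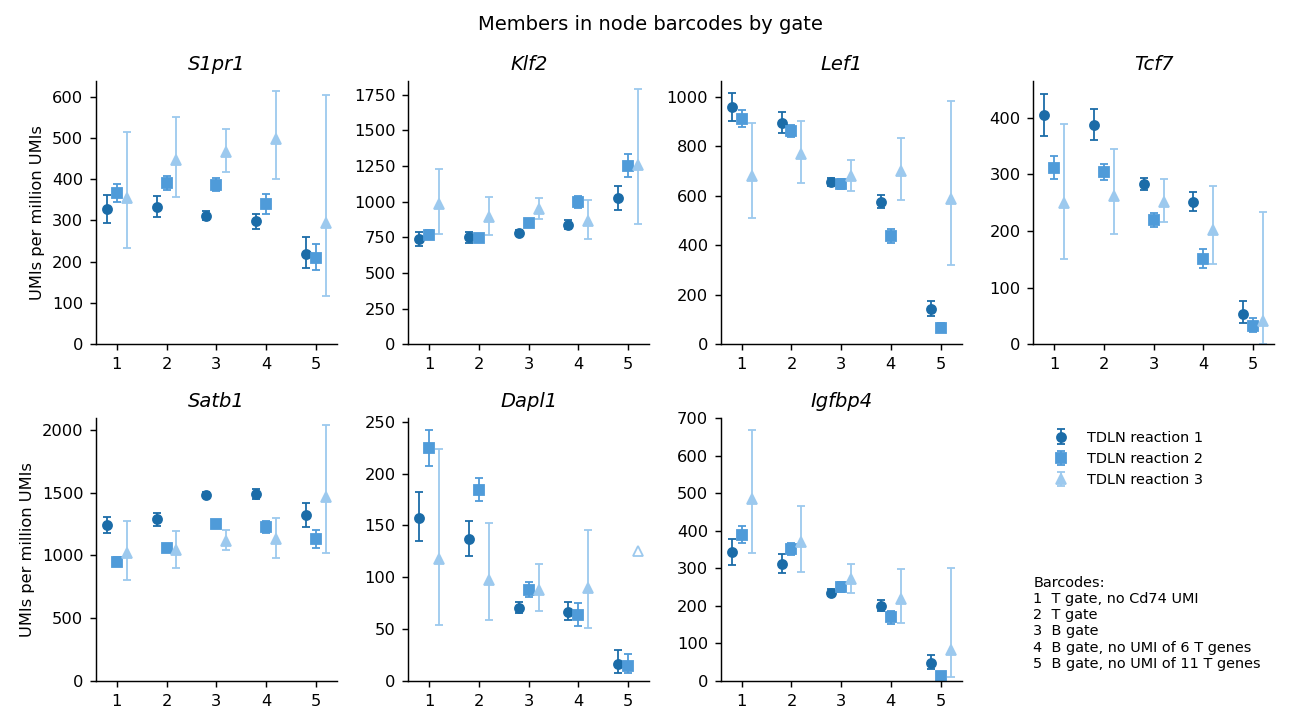
Levels of the 7 members in TDLN barcodes, in CPM with exact Poisson 95% intervals, from T-gated barcodes with no Cd74 UMI (1) to B-gated barcodes with no UMI of 11 T cell genes (5); the open symbol is 0 UMIs, at the level of 3 counts. Lef1, Tcf7, Dapl1, and Igfbp4 drop toward 5 in reactions 1 and 2, while Klf2 and Satb1 do not.

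How many members a single barcode held was counted after each was thinned to 700 UMIs, leaving out shallower barcodes (21, 46, and 13 in TDLNs and 3 and 27 in tumors). T-gated TDLN barcodes held on average 2.10, 2.04, and 2.04 of the 7 members, B-gated TDLN barcodes 2.00, 1.95, and 2.03, and T-gated tumor barcodes 0.322 and 0.325. Without thinning the T-gate averages were 3.82, 3.64, and 3.21 in TDLNs and 0.603 and 0.585 in tumors. After thinning, 35.7%, 34.1%, and 37.8% of T-gated TDLN barcodes held at least 3 members, while 0 of 171 and 0 of 231 tumor barcodes did. Among barcodes with no Cd74 UMI, which are part of the same gate but were thinned in a separate random draw, 1 of 105 and 1 of 155 tumor barcodes held at least 3, so counts this small depend on the draw.

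**Figure D3:**
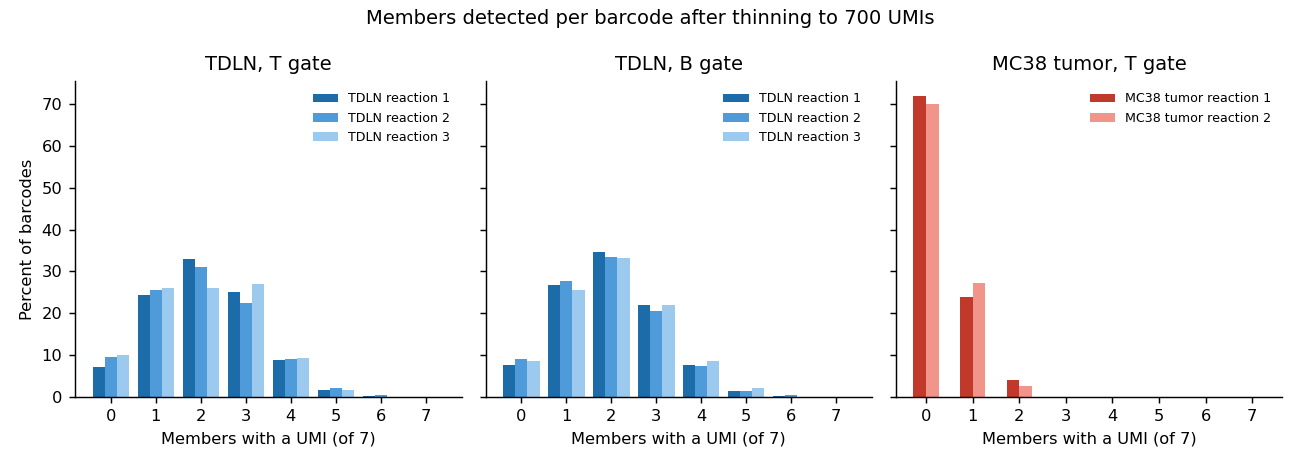
Percent of barcodes with 0 to 7 members detected after thinning to 700 UMIs, for T-gated TDLN, B-gated TDLN, and T-gated tumor barcodes, with 1 bar per reaction. TDLN barcodes of either gate center on 2 members, and most tumor T barcodes have 0 (71.9% in reaction 1).

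Shares of barcodes with a UMI were also compared for single genes. After thinning, Lef1 was detected in 43.6%, 44.7%, and 37.0% of T-gated TDLN barcodes and in 3.51% and 5.19% of T-gated tumor barcodes. In B-gated TDLN barcodes the Lef1 share was 36.0%, 34.5%, and 38.3%, above the T-gate share in reaction 3, so most of the TDLN share cannot be assigned to the T gate, and in tumor macrophages it was 0.193% and 0.0858%. The Klf2 share was lower in the T gate of TDLNs (37.7%, 38.2%, and 39.5%) than in the B gate (41.4%, 43.5%, and 47.4%) in all 3 reactions. The Satb1 share was lower in the T gate in reactions 1 and 2 (59.1% and 49.4% against 64.0% and 57.3%) and not in reaction 3 (52.1% against 50.7%). Median depths before thinning were 1778, 1602, and 1253.5 UMIs in the T gate of TDLNs, 1166.5 and 1039 in the T gate of tumors, and 2915 and 3515.5 in tumor macrophages. Dapl1 was detected in 8.10%, 10.1%, and 6.72% of T-gated TDLN barcodes and in 0 of 171 and 0 of 231 tumor barcodes, where 3 counts as the limit allow up to 1.75% and 1.30% of barcodes with a Dapl1 UMI at this depth (Clopper-Pearson upper limits, 2.13% and 1.58%). These limits concern detection of a UMI, not the share of cells that express the gene.

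The comparison was then made within each T cell class. CD4 cells were T-gated barcodes with Cd4 and without Cd8a, Cd8b1, or Foxp3, and Treg cells those with Foxp3 and without Cd8a or Cd8b1. Cytotoxic cells were other barcodes without Cd4 and with at least 2 genes of cytotoxic function such as Ccl5 and Nkg7. They could hold Cd8a or Cd8b1 or neither. CD8 cells were the remaining barcodes with Cd8a or Cd8b1 and without Cd4. The CD8 class thus leaves out barcodes with Cd8a or Cd8b1 that held at least 2 cytotoxic genes. Sums of fewer than 10 barcodes were left out. The CD4 class had 2 TDLN sums (75 and 165 barcodes) and only 1 tumor sum (24 barcodes), which was assumed to vary like the others and could not be left out. Under that assumption the 4 members with tumor UMIs (Klf2, Lef1, Tcf7, and Satb1) passed by edgeR, where 7.41% of genes passed and 4.06% were higher in TDLNs, and by DESeq2 only Lef1 and Satb1 passed. Lef1 stood at 1248 and 976 CPM against 157.6 CPM (log2 difference 3.02 ± 0.466, SE), and Satb1 at 1618 and 1114 CPM against 221 CPM (2.83 ± 0.414). S1pr1, Dapl1, and Igfbp4 had 0 UMIs in the tumor sum, so they passed the filter on low counts through the TDLN sums alone, and their call is no support. They were at least 4.17-fold, 1.64-fold, and 5.31-fold higher in TDLNs. Klf2 and Tcf7 rested on 3 and 2 UMIs there, with ratios of 7.31 (exact 95% counting interval, 2.48 to 35.6) and 5.18 (1.41 to 43.2). With the wide gate the class had 2 tumor sums (25 and 33 barcodes). All 7 members had tumor UMIs (1 for Dapl1 and 2 for S1pr1) and passed by edgeR, where 19.1% of genes passed. The filter on low counts favored genes that are high in TDLNs there, so the count is no support beyond the values of each gene. Lef1 stood there at 1235 and 939 CPM in TDLNs against 85.8 and 124 CPM in tumors (log2 difference 3.44 ± 0.376, SE), and Satb1 at 1621 and 1094 CPM against 450 and 248 CPM (2.03 ± 0.350).

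In the CD8 class (238, 804, and 35 barcodes in TDLNs, 29 and 25 in tumors) 6 members passed the filter on low counts and the test, with higher values in TDLNs, where 27.5% of the 958 genes tested passed and 12.9% were higher. The filter favored genes that are high in TDLNs, and the count is no support beyond the values of each gene, since Igfbp4 and S1pr1 had 0 and 2 UMIs in tumor CD8 cells. Satb1 stood at 1237, 1042, and 1026 CPM in TDLNs and at 127.6 and 40.0 CPM in tumors, with a log2 difference of 3.79 ± 0.411 (SE, edgeR adjusted p = 8.81e-06). Lef1 stood at 842, 883, and 893 CPM against 95.7 and 120.1 CPM (log2 difference 3.17 ± 0.367, SE), and Klf2 at 798, 780.2, and 760 CPM against 63.8 and 160.1 CPM (3.01 ± 0.391). The TDLN values of these transcription factors varied little between reactions, whereas each tumor value rested on at most 4 UMIs. Igfbp4 had 0 UMIs in tumor CD8 cells and was at least 6.02-fold higher in TDLNs, and Dapl1, which did not pass the filter, was at least 3.62-fold higher. Without tumor reaction 1, S1pr1 (log2 difference 2.61, edgeR adjusted p = 0.0716) and Tcf7 (1.99, adjusted p = 0.186) did not pass.

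In the cytotoxic class (167, 641, and 28 barcodes in TDLNs, 87 and 130 in tumors) every member with tumor UMIs was higher in TDLNs. These members passed by edgeR, where 30.4% of genes passed and 13.0% were higher. Dapl1 had 0 tumor UMIs and passed the filter on low counts through the TDLN sums alone, so its call is no support. S1pr1, Tcf7, and Igfbp4 had too few tumor UMIs to pass this filter without the TDLN sums. Their calls are no support beyond the values of each gene. Lef1 stood at 748, 787, and 739 CPM in TDLNs and at 63.7 and 83.2 CPM in tumors (log2 difference 3.37 ± 0.276, SE, edgeR adjusted p = 2.66e-08), and S1pr1 at 265, 376, and 480.3 CPM against 23.9 and 29.7 CPM (3.68 ± 0.412, adjusted p = 1.51e-06). Dapl1 was at least 19.1-fold higher in TDLNs, and Igfbp4 rested on 3 tumor UMIs, with a ratio of 25.1 (exact 95% counting interval, 8.53 to 122). The TDLN class is a weak one, because Ccl5 stood at 447, 562, and 445 CPM in B-gated TDLN barcodes and at 585, 614, and 642 CPM in the T gate, so that cytotoxic genes were also found outside cytotoxic cells.

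Treg sums of tumors held 3 and 8 barcodes, too few for a sum, so this class was compared with the wide gate, which gave 11 and 14 tumor barcodes and 18 and 65 TDLN barcodes. Klf2, Lef1, and Satb1 passed the filter on low counts, which favored genes high in TDLNs here too, and these 3 were higher in TDLNs, where 25.5% of genes passed and 12.6% were higher. Klf2 stood at 776.5 and 520 CPM in TDLN Tregs and at 43.9 and 85.9 CPM in tumor Tregs (log2 difference 3.22 ± 0.601, SE, edgeR adjusted p = 0.000658), and Lef1 at 806 and 551 CPM against 43.9 and 143 CPM (2.73 ± 0.565, adjusted p = 0.00159). Satb1 stood at 896 and 583 CPM against 176 and 172 CPM (2.11 ± 0.488, adjusted p = 0.00376). Each tumor value rested on at most 6 UMIs. When Treg cells were taken from clusters made without the members, 5 of 6 members tested were higher in TDLNs, where 19.2% of genes passed, and Satb1 did not pass (1.04, adjusted p = 0.0503). The 10 leading genes of that tumor cluster (40 barcodes) included Lyz2, Hmox1, and Acod1, which macrophages express, beside Foxp3 and Ikzf2, and the part of macrophage RNA in the result was not tested. In clusters of the wide gate, where these 3 genes were not among the 10 leading genes of the tumor Treg cluster (63 barcodes), 6 of 6 members tested were higher, where 22.2% of genes passed. The filter on low counts favored genes high in TDLNs in clusters too, so these counts are no support beyond the values. In the tumor cluster of 40 barcodes, S1pr1, Klf2, Lef1, Tcf7, Satb1, and Igfbp4 rested on 4, 7, 11, 1, 20, and 3 UMIs.

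**Figure D4:**
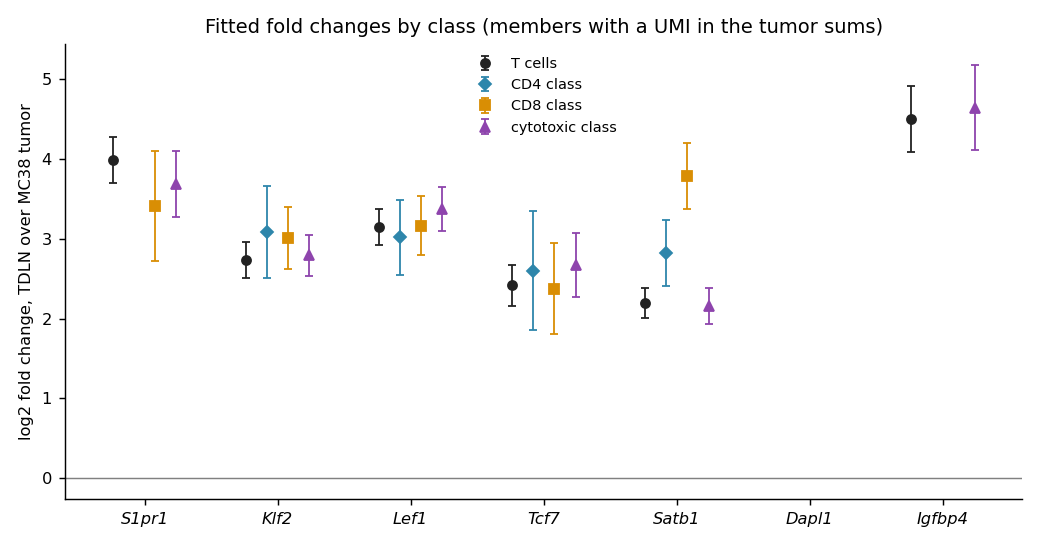
Fitted log2 fold change of each member, TDLN over MC38 tumor, with its SE, for all T-gated barcodes and for 3 classes; members with 0 UMIs in the tumor sums of a class, Dapl1 in all of them, are not drawn. All points lie above 2, and Igfbp4 lies highest for all T-gated and for cytotoxic barcodes.

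Within TDLNs, 4 of the 7 members, Lef1, Tcf7, Satb1, and Igfbp4, were lower in Tregs (17 and 62 barcodes) than in CD4 cells by edgeR, where 2.96% of genes passed in either direction and 1.83% were lower. Igfbp4 stood at 94.3 and 222 CPM in Tregs of reactions 1 and 2 against 507 and 499 CPM in CD4 cells, a log2 difference of -1.52 ± 0.265 (SE, edgeR adjusted p = 1.86e-06). Satb1 stood at 880.2 and 576.5 CPM against 1618 and 1114 CPM (-1.10 ± 0.168, adjusted p = 1.99e-08). Both genes were lower in Tregs in each reaction. Lef1 stood at 754 and 552 CPM against 1248 and 976 CPM (-0.98 ± 0.177, adjusted p = 5.07e-06), and Tcf7 at 126 and 148 CPM against 376 and 298 CPM (-1.25 ± 0.312, adjusted p = 0.00382). S1pr1 (-0.60, adjusted p = 0.245), Klf2 (-0.40, adjusted p = 0.369), and Dapl1 (-1.28, adjusted p = 0.0866) did not pass.

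When a reaction was left out, the HMG box factors stayed lower in Tregs, but some of their calls were lost. Without TDLN reaction 2, Lef1 (log2 difference -0.99, edgeR adjusted p = 0.0713) and Tcf7 (-1.84, adjusted p = 0.117) did not pass, and without reaction 1 Tcf7 did not (-1.10, adjusted p = 0.191). Satb1 and Igfbp4 passed in both cases. Treg and CD4 sums came from reactions 1 and 2 only, so with either left out 1 sum was set against 1, the other classes supplied the spread (1 residual degree of freedom), and these p-values are no check between reactions. Among barcodes with no Cd74 UMI, where 1.55% of genes passed, Lef1 (-1.37), Satb1 (-1.20), and Igfbp4 (-1.43) passed and Tcf7 did not (-1.14, adjusted p = 0.263).

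CD8 and CD4 cells of TDLNs differed in 1 of the 7 members, where 1.97% of genes passed and 1.09% were lower. Igfbp4 was lower in CD8 cells, at 292 and 330.1 CPM in reactions 1 and 2 against 507 and 499 CPM in CD4 cells, with a log2 difference of -0.64 ± 0.136 (SE, edgeR adjusted p = 0.000379). For the other 6 members the log2 differences ran from -0.27 (Lef1) to 0.35 (Dapl1), and their adjusted p-values from 0.213 to 0.928. Igfbp4 did not pass by DESeq2 (-0.69, adjusted p = 0.0785), without TDLN reaction 1 (-0.58, adjusted p = 0.245), or without the reaction as a block (-0.64, adjusted p = 0.517). Among barcodes with no Cd74 UMI, where 3.99% of genes passed, Igfbp4 (-0.66) and Klf2 (0.43 higher in CD8 cells, adjusted p = 0.0318) passed.

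The cytotoxic class of TDLNs was not separated from CD8 cells by the gate. No member passed edgeR's quasi-likelihood test, where 0.636% of genes passed, and 0 passed by DESeq2. By edgeR 2 of 7 (Satb1 and Igfbp4, both lower) had an unadjusted p under 0.05, beside 330 of all 5034 genes tested. The log2 differences ran from -0.29 ± 0.115 (Igfbp4) to 0.04 ± 0.129 (Dapl1). When classes were taken from clusters made without the members, the cytotoxic cluster held 171 barcodes instead of 836, and 6 of 7 members were lower than in the CD8 cluster, where 4.29% of genes passed. Klra7, Klre1, Klrc1, and Fcer1g, genes that NK cells also express, were among the 10 leading genes of that cluster beside Ccl5, Gzma, and Nkg7, and the part of NK cells in the result was not tested. There Igfbp4 stood at 162 and 171 CPM in cytotoxic against 397 and 437 CPM in CD8 cells of reactions 1 and 2, and Lef1 at 657 and 641 CPM against 1046 and 997 CPM. The cluster values were lower in both reactions for both genes, and Klf2 alone did not pass (-0.29). Among gated barcodes with no Cd74 UMI, 1 of 7 members passed, where 0.668% of genes passed, namely Igfbp4 (-0.49, edgeR adjusted p = 0.0398).

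**Figure D5:**
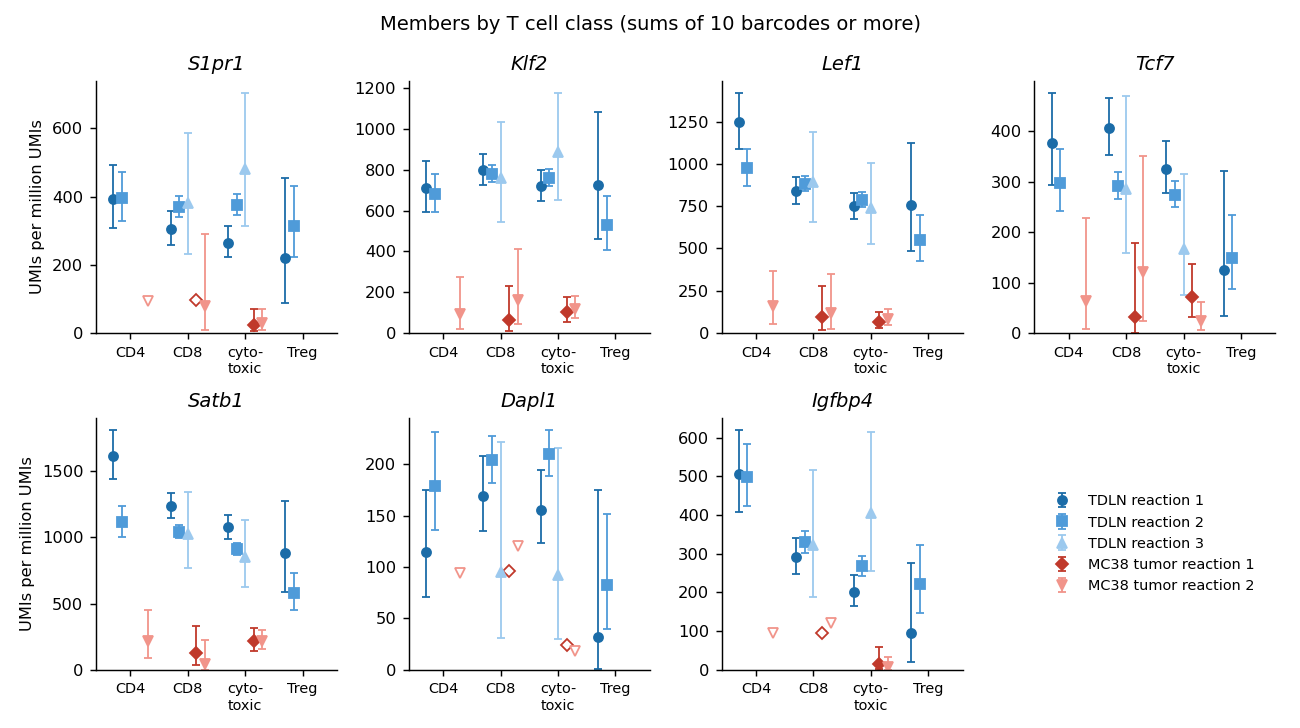
Levels of each member by T cell class and reaction, in CPM with exact Poisson 95% intervals, for sums of at least 10 barcodes; open symbols are 0 UMIs, at the level of 3 counts. TDLN Tregs lie below TDLN CD4 cells for Lef1, Tcf7, Satb1, and Igfbp4, and tumor values of a class are lower than its TDLN values or are 0.

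Whether class differences themselves differed between tissues was tested as an interaction. For Treg against CD4 (wide gate), 0 of 7 members passed by edgeR or DESeq2 and 0 had an unadjusted p under 0.05, where 0.127% of genes passed. For cytotoxic against CD8, 0 of 7 passed by edgeR or DESeq2, where 0.0994% of genes passed by edgeR. By edgeR 1 of 7 (Satb1) had an unadjusted p under 0.05, beside 381 of all 5029 genes tested. Within tumors, no member passed the filter on low counts for CD8 against CD4 (2.26% of genes passed) or for cytotoxic against CD8 (0.398%). Satb1, the only member tested for Treg against CD4 in tumors with the wide gate, did not pass by edgeR (-1.0 ± 0.480, adjusted p = 0.363, unadjusted p = 0.0568) or DESeq2, where 0.853% of genes passed. In clusters of the wide gate Satb1 was lower in tumor CD8 than in tumor CD4 cells, at 195.5 and 174 CPM against 391 and 581 CPM, where 6.85% of genes passed. In clusters of the main gate no member passed, and the Satb1 means were 260 CPM in CD8 and 439 CPM in CD4 cells.

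Tumor T cells were also set beside the other cells of the tumors, in which the members are not confined to T cells. Satb1 was 190.1 to 225 times and Lef1 22.0 to 84.2 times as high in T-gated as in macrophage-gated barcodes (4710 and 4700), and Tcf7 25 to 138 times, so the residual signal of these 3 in tumor T cells was far above the level of that abundant cell type. S1pr1 was 5.03 to 6.04 times as high in T cells. Klf2 and Igfbp4 went the other way, with ratios of 0.444 to 0.659 and 0.0444 to 0.4. Klf2 stood at 192 and 217 CPM in macrophages and at 247 and 447 CPM in fibroblasts, above its 85.2 and 143 CPM in T cells, so for Klf2 and Igfbp4 the tumor T cells did not stand out from the other cells. How much of the signal in T-gated tumor barcodes came from RNA of such cells was not tested.

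The treatments could be compared only in tumors and only in part. Of T-gated barcodes with exactly 1 hashtag present, 133 and 201 carried CPI, 6 and 12 isotype, 0 and 4 CPI + ABT-317, and 0 and 0 isotype + ABT-317, and no comparison with ABT-317 was made. These assignments depended on the rule. When the leading hashtag had to exceed the next by 1 log unit, 33 and 31 T-gated barcodes carried CPI, 7 and 1 isotype, and 2 and 6 CPI + ABT-317, and 132 and 220 had no single hashtag, so that the treatment of most tumor T cells was not settled. With the wide gate (279 and 270 CPI barcodes, 12 and 15 isotype barcodes) Klf2, Lef1, and Satb1 could be tested for CPI against isotype. None passed by edgeR or DESeq2 and none had an unadjusted p under 0.05, where 0.0301% of genes passed. Satb1 stood at 209 and 240.2 CPM under CPI and at 57.2 and 303 CPM under isotype, where it rested on 1 and 6 UMIs, and its log2 difference was 0.53 ± 0.625 (SE). For Klf2 and Lef1 the log2 differences were 1.2 ± 1.14 and 0.49 ± 0.986, so a difference was not detectable at this depth.

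Other genes of the same biology were counted in 4 lists. Of 15 genes of quiescence and recirculation, 11 were higher and 0 lower in T cells of TDLNs than of tumors by edgeR, beside 15.1% of all genes higher, with a median log2 difference of 2.50. Ccr7, the chemokine receptor for node entry, stood at 818, 858, and 965 CPM in TDLNs and at 34.1 and 19.1 CPM in tumors (log2 difference 5.07 ± 0.275, SE). Klf3, a KLF family repressor, and Nsg2 differed by 4.63 and 4.44. Of 15 genes of activation and residency, 13 were tested, 9 were lower and 1 was higher in TDLNs, beside 19.6% of all genes lower, with a median of -2.05. Tbx21, the effector transcription factor T-bet, differed by -4.76, Cxcr6, a chemokine receptor of resident T cells, by -4.03, Rgs16 by -3.96, and Bhlhe40 by -3.23, while Tox was the 1 that was higher (0.98 ± 0.246, adjusted p = 0.00834). Without tumor reaction 2, Tox did not pass (0.77, edgeR adjusted p = 0.162). The 2 lists thus stood on opposite sides of the median of all genes.

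The partners of the members were mostly below the filter or did not pass. Of 12 genes of the S1P axis (other receptors, kinases, transporters, and phosphatases), 2 were tested and 1 was higher in TDLNs, beside 15.1% of all genes, Gnai2, a G protein subunit through which S1PR1 signals (0.71 ± 0.178, edgeR adjusted p = 0.0083). Of 12 partners of TCF and LEF factors, 6 were tested and 1 was higher, a share near the 15.1% of all genes, Tle4, a Groucho family corepressor, at 258, 268, and 308 CPM in TDLNs against 42.6 and 60.5 CPM in tumors (2.36 ± 0.243, adjusted p = 9.46e-06). Tle4 was also higher in TDLNs in the CD4 (3.24), CD8 (1.78), and cytotoxic (2.14) classes. By class, 8 of 14 quiescence genes tested were higher in TDLNs for CD4, 7 of 10 for CD8, 3 of 5 for Treg (wide gate), and 11 of 14 for cytotoxic cells, with 0 lower in each and a single tumor sum for CD4, beside 4.06%, 12.9%, 12.6%, and 13.0% of all genes higher. The activation list gave 5 of 10, 3 of 7, 1 of 4, and 8 of 12 lower, beside 3.35%, 14.5%, 12.9%, and 17.4% of all genes lower. In that list Tox was higher in TDLNs for Treg and for cytotoxic cells, so the Treg count has no direction (list median 0.166).

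Between Tregs and CD4 cells of TDLNs, 5 of 15 quiescence genes were lower in Tregs by edgeR, beside 1.83% of all genes, among them Rasgrp2 (-1.62), the interleukin 7 receptor gene Il7r (-0.73), Foxp1 (-0.68), and Bach2 (-0.61). Of 10 activation genes tested, 3 were higher in Tregs, beside 1.13% of all genes, namely Itgae (2.23), which encodes the integrin CD103, Rgs1 (1.06), and Tox (0.89). The quiescence list as a whole was centered near all genes, with medians of -0.024 and -0.041, so the lower members there were a part of it. Between CD8 and CD4 cells, Tox was lower (-0.69) and Cd69 higher (0.64) in CD8 cells and no quiescence gene passed by edgeR.

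Across the 15 class sums of at least 10 barcodes, the members' log2 CPM values correlated with each other at Pearson's r of 0.688 (S1pr1 and Satb1) to 0.963, where the tumor sums were low for all of them and sums share libraries. Within the 10 TDLN sums, r ran from 0.157 (S1pr1 and Satb1) to 0.925 (Lef1 and Satb1), with 0.884 for S1pr1 and Igfbp4. The 5 genes of 5261 whose pattern was most like the mean of the members over the 15 sums were Rapgef6 (r = 0.983), Rpl21 (0.982), Vps37b (0.978), Klf3 (0.975), and Bank1 (0.974). Bank1 is a B cell gene, which stood at 244, 198, and 298 CPM in T-gated TDLN barcodes and at 4.26 and 0 CPM in tumors, so likeness over these sums is not restricted to T cell genes. Without barcodes that held Cd74, Bank1 stood at 22.9 and 20.2 CPM in TDLN reactions 1 and 2. Ighm, an antibody gene of B cells, fell less, from 184 and 175 CPM to 124 and 127 CPM, so B cell RNA was not removed.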

How the data were processed

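Droplet scRNA-Seq counts of 3 TDLN and 2 MC38 tumor reactions were used. The authors deposited UMI counts per gene and barcode, not normalized; the submitters' processing notes name Cell Ranger 3.1.0 and GRCm38 (mm10), whereas file headers and the methods name other releases. The study's limits on barcodes were applied (from 200 to below 2500 detected genes, mitochondrial share below 10%). Members and gene lists were chosen with earlier results of these data known. Gates used marker genes other than the members, without a doublet caller. Named genes are the members, up to 4 genes per list past the threshold with the largest change, and the 5 most alike genes, apart from 1 list gene that is not reported here. UMIs were summed per class and reaction (at least 10 barcodes), given as CPM with exact Poisson 95% intervals (Clopper-Pearson for shares) and 3 counts as the limit for 0, and tested with edgeR 4.0.16 (R 4.3.3, TMM, filterByExpr, quasi-likelihood, adjusted p of 0.05), with the reaction as a block within a tissue. A log2 difference is the first named group minus the second. Alternatives were DESeq2 1.42.0, total-count scaling, no low-count filter, each reaction left out, other gates, no upper limit on genes, and Leiden clusters (leidenalg 0.10.2, igraph 0.11.9) made without members and list genes. Python 3.11.15, numpy 2.4.6, scipy 1.17.1, pandas 2.3.3 and matplotlib 3.10.9 were used. The fits were tested on simulated data. T cell receptor sequences and antibody panels were not analysed here, apart from the hashtags of tumors (2-component fit, exactly 1 present).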

Additional observations from a re-analysis of the deposited data

Results flagged for a closer look

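Members were also high in tumor cells that no comparison of T cells used. S1pr1 stood at 238.5 and 338.9 CPM in endothelial-gated barcodes of MC38 reactions 1 and 2 (12 and 15 barcodes, 7 and 14 UMIs), against 25.6 and 22.3 CPM in tumor T cells. Igfbp4 stood at 381.7 and 683.4 CPM in fibroblast-gated barcodes (1137 and 567) against 29.8 and 3.18 CPM in tumor T cells. Lef1, Tcf7, and Satb1 had 0 UMIs in the endothelial-gated barcodes of both reactions.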

How the results depend on the processing

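Of 591 log2 differences of members under alternatives, 551 kept their direction and their side of the threshold, 17 no longer passed, 8 newly passed, and 15 turned. For TDLN against tumor, 318 of 327 kept both, 9 no longer passed, and 0 turned. All 7 members passed for T cells in all 13 alternatives. Both counts include members with 0 tumor UMIs, such as Dapl1 (1 with the wide gate), whose calls are no support. They also include members that passed the filter on low counts through TDLNs alone, such as S1pr1 and Igfbp4 for T cells. Those calls are no support either. The count of members that passed moved by over 1.5 times in these cases: CD4 class, 2 by DESeq2; Treg class, 5 with clusters and 6 with clusters of the wide gate; CD8 against CD4 cells of TDLNs, 0 by DESeq2, 2 with total-count scaling, 2 with no Cd74 UMI, 0 without the replicate block, and 0 to 1 when a reaction was left out; Treg against CD4 cells of TDLNs, 2 to 4 when a reaction was left out; cytotoxic against CD8 cells of TDLNs, 1 with no Cd74 UMI and 6 with clusters; and CD8 against CD4 cells of tumors, 1 with clusters of the wide gate. Smaller moves were 6 for the CD4 class with no Cd74 UMI, 4 to 7 for the CD8 class when a reaction was left out (4 without MC38 tumor replicate 1) and 7 with no low-count filter, the wide gate, no Cd74 UMI, or clusters, 2 for the Treg class with Tregs by Foxp3 or Il2ra and Ctla4 and 4 with no low-count filter, 6 for the cytotoxic class with the strict gate, and for Treg against CD4 cells of TDLNs 3 with no Cd74 UMI or without the replicate block and 5 with the other Treg rule. The cause was not tested. The log2 differences that turned were Tcf7 in CD8 against CD4 cells of TDLNs (-0.025 with no Cd74 UMI), Satb1 in Treg against CD4 cells of tumors (0.62 with Tregs by Foxp3 or Il2ra and Ctla4), and, in cytotoxic against CD8 cells of TDLNs, S1pr1 (-0.025 with total-count scaling, -0.077 to 0.109 when a reaction was left out, with -0.077 without replicate 2 and -0.002 without replicate 3, -0.049 with the strict gate, -0.114 with no Cd74 UMI, -0.543 with clusters), Dapl1 (-0.003 with total-count scaling, -0.083 to 0.093 when a reaction was left out, -0.05 with the strict gate, -0.124 with no Cd74 UMI, -0.636 with clusters), and Klf2 (-0.054 to 0.05 when a reaction was left out, 0.015 without the replicate block). Of these, S1pr1 and Dapl1 with clusters passed the threshold.

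Genes called ranged from 555 to 3067 (1831 as reported) for T cells of TDLNs against tumors, 51 to 439 (303) for the CD4, 101 to 1866 (263) for the CD8, 49 to 436 (144) for the Treg, and 258 to 1829 (959) for the cytotoxic class. Within TDLNs the ranges were 13 to 221 (99) for CD8 against CD4, 31 to 187 (149) for Treg against CD4, and 6 to 243 (32) for cytotoxic against CD8. Within tumors they were 0 to 98 (17), 1 to 67 (9), and 1 to 43 (3), for the interactions 2 to 5 (4) and 0 to 6 (5), and for CPI against isotype 1 to 100 (1). With total-count scaling the split of higher and lower calls went from 166 and 137 to 111 and 177 for the CD4 class, from 124 and 139 to 100 and 180 for the CD8 class, from 57 and 92 to 81 and 49 for Treg against CD4 cells of TDLNs, and from 20 and 12 to 14 and 18 for cytotoxic against CD8 cells of TDLNs, and the median of all genes went from 0.207 to -0.007 for the CD4 class and from 0.002 to -0.164 for the CD8 class. Same-numbered reactions of TDLNs and tumors share only a number (r of their deviations -0.0312 and 0.0275 over 5268 genes). A fit with the number as a replicate block called 1840 genes and 7 of 7 members for T cells. Among them were Dapl1, with 0 tumor UMIs, and S1pr1 and Igfbp4, which entered the test through TDLNs alone. Comparisons with CPI + ABT-317, CPI against isotype under the main gate or a hashtag lead, leaving out a reaction for the CD4 and Treg classes and for tumor classes, and CD4 clusters in TDLNs could not be fitted. Tumor class sums of 24 to 130 barcodes, with few UMIs per member, limit what the class comparisons can show.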
